A study of Mus musculus with 6 samples.

Results

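Genes of the enzymes that add or remove methyl groups on histones and DNA were followed through the accessible chromatin of mouse lung group 2 innate lymphoid cells (ILC2s). The 38 genes encode writers and erasers of histone H3 methylation, the core of Polycomb repressive complex 2 (PRC2), the DNA methyltransferases and the TET dioxygenases. A region of the count table was counted as a member when the mm10 protein-coding gene it overlapped, or otherwise the gene with the nearest end within 100 kb, was among the 38. This gave 217 of 57203 regions, of which 54123 received any gene. Regions were found for 37 of the 38 genes. Kdm5b, a demethylase of methylated H3 lysine 4 (H3K4), had none, because the region at its start overlapped Mgat4e more and was assigned there.

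ATAC-seq marks open DNA by letting the transposase Tn5 insert adapters there, and it had been run on ILC2s sorted from the lung as Lin-CD25+ST2+ cells of wild-type mice, which were female unless stated otherwise. The donors of naive cells received PBS over 3 days. Those of effector cells received papain, a protease allergen, at 30 µg daily over 3 days. Those of memory cells received papain in the same way and then rested for 2 months. Every group had 2 libraries, each from its own pool of about 50000 cells from 2 to 4 mice, so the libraries are biological replicates of pools and not of single mice. The memory label rests on the history of the mice, and no label follows single cells through the rest. In sorted bulk cells, a region that is open in fewer cells and one that is less open in every cell cannot be told apart.

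Histone methyltransferases place marks that differ in meaning with the lysine. Methylated H3K4 marks promoters and enhancers, H3K36 and H3K79 methylation accompany transcribed genes, and H3K27 methylation by PRC2 and H3K9 methylation accompany silenced chromatin. Demethylases of the KDM family remove these marks. DNA methyltransferases methylate cytosine in CpG pairs and TET enzymes oxidise the methyl group, the first step towards its removal. In lymphocytes these enzymes are known for setting which effector genes can be switched on and for keeping such settings through division.

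The regions were spread unevenly over the genes. Tet2 had 20 regions and Jmjd1c 19. Dnmt3a and Kdm2b had 13 each, Kmt2e, Nsd3 and Eed 12 each, and Tet3 10. Kmt2c had 9, Kmt2a 8, Ezh2 7, and Dot1l, Kdm1a and Kdm4b 6 each. Ezh1 and Dnmt1 had 5, and Nsd1, Nsd2, Setdb1, Kdm2a, Kdm4c and Tet1 had 4. Kmt2d, Ehmt1, Ehmt2, Kdm5a, Kdm6b and Dnmt3b had 3, and Setd1b, Setd2 and Kdm4a had 2. Kmt2b, Setd1a, Suz12, Suv39h1, Suv39h2 and Kdm3a had a single region. Member regions lay inside genes more often than regions with a gene did in general. Of the 217, 139 (64.1%) lay inside a gene, 39 (18.0%) at or within 1 kb of a gene end and 39 (18.0%) between genes, against 46.1%, 25.02% and 28.8% of all regions with a gene. Their median width was 1206 bp. The annotation used gives the bounds of genes and not of exons, so no region is called exonic or intronic, and the nearest gene need not be the gene that a region acts on.

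Library totals ran from 11995095 to 20591102 counts, and member regions held 0.504% to 0.550% of them. The Wilson 95% interval of the highest share ran from 0.547% to 0.554% and covers counting error only. Levels below are CPM, counts scaled to library size, with TMM, a factor that centres most regions between libraries. A region was called when its Benjamini-Hochberg adjusted p over 56007 tested regions was under 0.05 in edgeR's quasi-likelihood test. Of the member regions, 210 had enough counts to be tested. The 10 ILC2 marker genes all had regions, with summed levels of 3739 to 4050 CPM in naive, 3800 to 4481 CPM in effector and 3840 to 4214 CPM in memory libraries. Of the marker genes of other cells, regions were found for 7 of 8 of T cells, 3 of 6 of B cells, 5 of 6 of NK cells and ILC1s, 5 of 8 of myeloid cells, 4 of 6 of mast cells and basophils and 6 of 7 of lung epithelium, endothelium and stroma. Those without a region included Cd8a for T cells, Ms4a1 and Cd79a for B cells, Ncr1 for NK cells, Lyz2, Csf1r and Adgre1 for myeloid cells, Fcer1a and Mcpt8 for mast cells and basophils, and Sftpc for lung epithelium.

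Promoter sequence is shown for the 4 member genes whose region over a promoter window was called between effector and naive cells, because such a window covers an annotated start. The windows of Kdm4c and Tet3 lie inside their genes, away from the annotated gene ends. The windows are RefSeq's for GRCm38.p6 (mm10), 250 bases before to 50 bases after the start, written 5′ to 3′ on the gene's strand. They are chr7:89980927-89981226 (minus strand) for Eed, chr4:74251629-74251928 (plus strand) for Kdm4c, chr3:133544341-133544640 (minus strand) for Tet2 and chr6:83441629-83441928 (minus strand) for Tet3. Capitals mark matches, on either strand, to GGGCGG (GC box), CCGGAA (ETS core), CCAAT (the box named after these letters), TGACGTCA (CRE) and TGANTCA (AP-1).
Eed promoter: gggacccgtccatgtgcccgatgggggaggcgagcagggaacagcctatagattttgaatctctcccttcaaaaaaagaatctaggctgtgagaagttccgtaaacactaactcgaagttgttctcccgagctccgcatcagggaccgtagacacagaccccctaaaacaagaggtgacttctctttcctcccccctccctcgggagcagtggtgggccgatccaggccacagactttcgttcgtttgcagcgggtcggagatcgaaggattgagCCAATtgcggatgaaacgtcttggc
Kdm4c promoter: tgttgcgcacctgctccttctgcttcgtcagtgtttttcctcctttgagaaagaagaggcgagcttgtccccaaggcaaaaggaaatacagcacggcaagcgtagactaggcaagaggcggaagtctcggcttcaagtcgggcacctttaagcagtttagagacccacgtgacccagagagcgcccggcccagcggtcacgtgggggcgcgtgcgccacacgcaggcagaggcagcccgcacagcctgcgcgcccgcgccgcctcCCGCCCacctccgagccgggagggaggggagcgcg
Tet2 promoter: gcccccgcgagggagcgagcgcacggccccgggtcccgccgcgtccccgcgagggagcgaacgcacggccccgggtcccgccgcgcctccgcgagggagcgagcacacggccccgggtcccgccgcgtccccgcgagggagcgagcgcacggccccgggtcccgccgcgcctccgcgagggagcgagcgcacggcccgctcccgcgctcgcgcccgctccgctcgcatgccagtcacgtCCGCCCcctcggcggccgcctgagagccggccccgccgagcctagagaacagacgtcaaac
Tet3 promoter: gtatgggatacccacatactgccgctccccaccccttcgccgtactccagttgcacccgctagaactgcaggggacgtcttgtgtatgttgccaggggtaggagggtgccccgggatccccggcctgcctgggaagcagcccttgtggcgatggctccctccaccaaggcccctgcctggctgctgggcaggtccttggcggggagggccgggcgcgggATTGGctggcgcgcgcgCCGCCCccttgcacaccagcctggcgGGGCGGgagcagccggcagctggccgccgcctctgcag

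The 4 windows differ in CpG content. The Tet2 window held 57 CpG pairs at 81.3% G and C, and a run of 25 bases (ccgcgagggagcgagcgcacggccc) occurred 3 times in it. The Kdm4c window held 28 CpG pairs, the Tet3 window 22 and the Eed window 17, against a median of 7 over 32851 promoters. Windows under accessible member regions were CpG-rich in general, with 12 to 57 pairs and a median of 30 over 35 windows of 26 genes. The Eed window had 1 CCAAT box and no GC box, Kdm4c and Tet2 had 1 GC box each, and Tet3 had 2 GC boxes and 1 CCAAT box. A GC box occurred in 35.7% of all promoters and a CCAAT box in 37.4%. No ETS core, CRE or AP-1 match was in the 4 windows, against 14.9%, 1.79% and 7.81% of all promoters.

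Per kb, the most accessible member regions over all 6 libraries were the promoter region of Kdm4a (131.7 CPM per kb), an end region of Nsd3 (129.2), a region near Kmt2e (123.7) and an end region of Kdm4b (118.1). A region inside Kdm6b, which encodes an H3K27 demethylase, had the most CPM of any member region and 97.9 CPM per kb, and the most covered regions of Dnmt3a (90.0), Eed (87.0) and Dot1l (80.4) followed. Those of Tet2 (45.8), Ezh2 (34.2), Dnmt1 (26.3), Tet3 (22.9), Suz12 (19.5) and Kmt2a (14.9) were lower, and those of Tet1 (9.97) and Dnmt3b (6.0 CPM per kb) lowest of the 12 genes for which this was read. The Kdm6b region (11:69408592-69412157) had 364 and 295 CPM in effector libraries, against 406 and 316 CPM in naive libraries. Memory libraries had 410 and 304 CPM. Replicates differed here by more than the group means did, and no comparison called the region (log2 −0.13 ± 0.16 for effector against naive, SE, edgeR adjusted p = 0.644). Coordinates are written as deposited, and whether starts count from 0 or 1 is not given in the sources used here.

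Effector cells were set against naive cells to ask which of these genes had changed accessibility after 3 days of papain. More member regions opened than closed, and the gains were mostly weakly accessible regions inside or between genes, while losses were mostly strong regions. The same held over the whole table. Regions near PRC2 genes, inside Dot1l and Dnmt3a, and upstream of Tet2 were among the gains, and the promoters of Eed, Tet2 and Kdm4c among the losses. Of 210 tested member regions, 32 (15.2%) were called higher and 7 (3.33%) lower in effector cells, against 11.5% higher and 4.98% lower over all tested regions. The median log2 fold change was 0.13 over member regions and 0.00 over all. Both effector libraries lay above both naive libraries in 80 member regions and below them in 46, against 31.2% and 27.6% of all regions, and 69 regions had an unadjusted p under 0.05 (29.9% of all regions). Without effector replicate 1 the called regions numbered 12 higher and 0 lower, without effector replicate 2 they numbered 27 and 3, and without naive replicate 1 they numbered 17 and 1. Calls over all regions also fell in both directions in each of these fits. Over all regions the main fit called 6449 higher and 2791 lower. Scaling by total counts alone gave 39 higher and 2 lower member regions, against 7261 and 1535 over all. TMM restricted to the most covered 20% of regions moved the median of all regions to 0.20. It gave 45 and 0 member regions, against 8662 and 739 over all. With the replicate number as a block, 44 were called higher and 23 lower, against 15.6% and 11.7% of all regions.

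**Figure D1:**
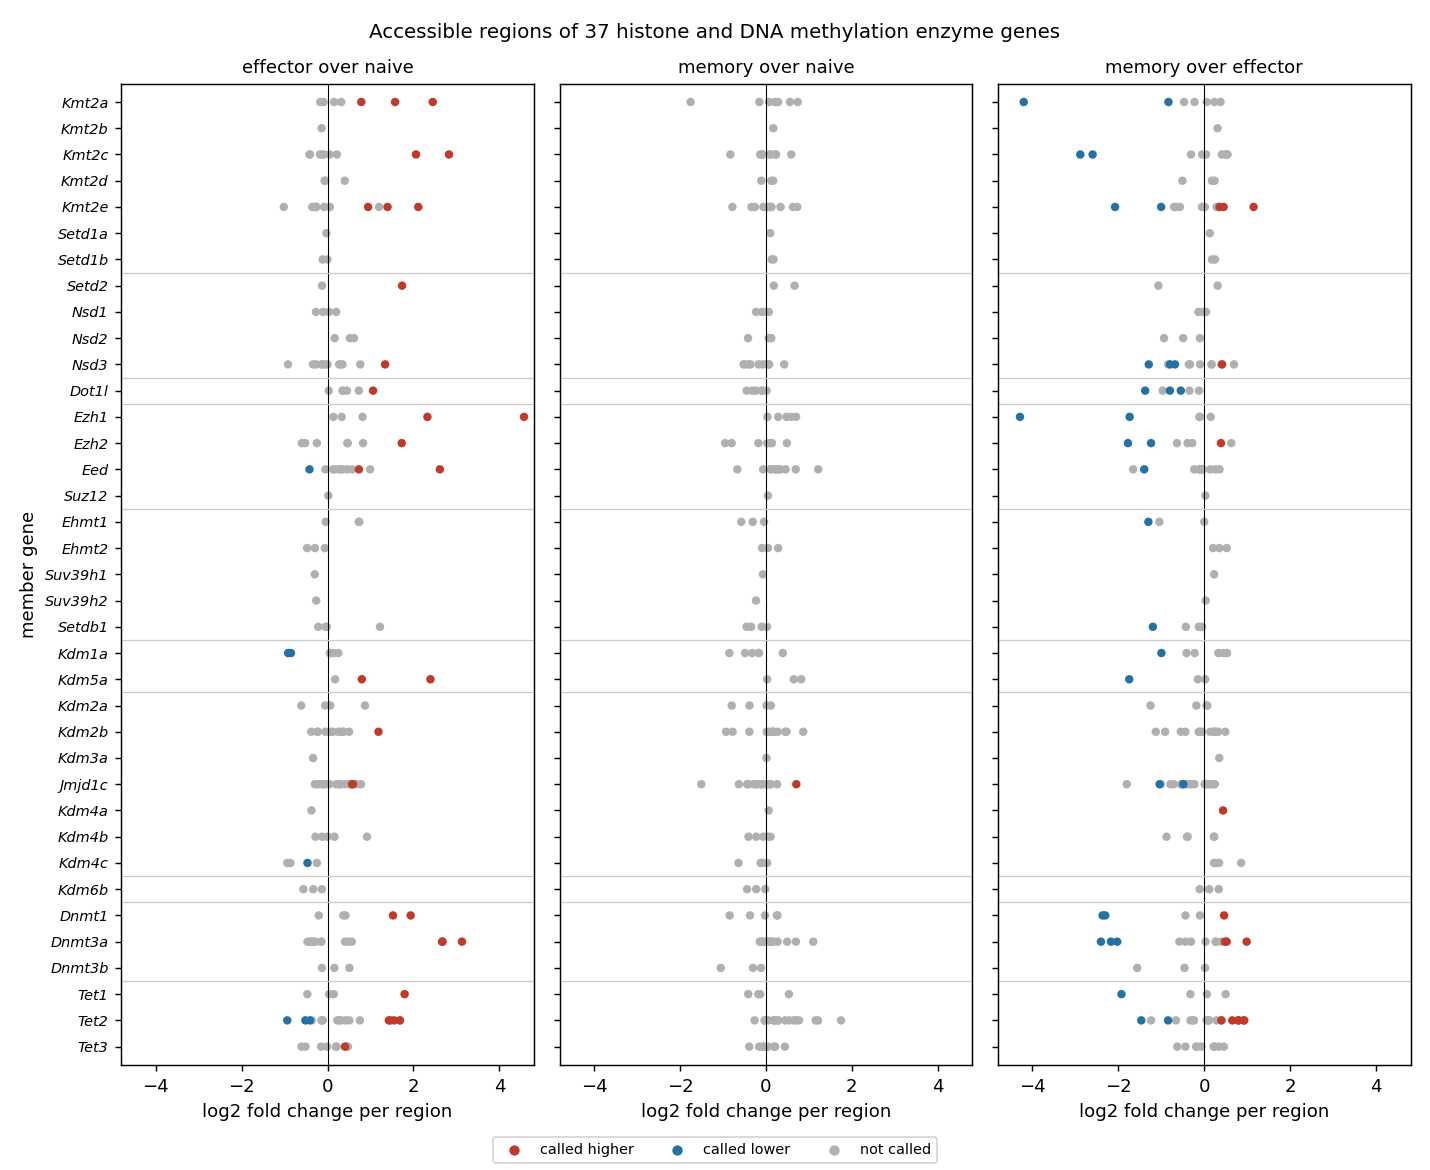
Log2 fold change of each tested region (points) by member gene (rows, grouped by role) for effector over naive, memory over naive and memory over effector. Red points were called higher and blue points lower by edgeR. A single red point, in Jmjd1c, stands in the memory over naive panel, against 32 red and 7 blue points for effector over naive.

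Where a region lay went with its direction, as it did over the whole table. At gene ends 1 of 39 member regions rose and 3 fell in effector cells, against 2.86% and 8.04% of all gene end regions. Inside genes 21 of 132 rose and 2 fell (14.4% and 3.37% over all), and between genes 10 of 39 rose and 2 fell (13.9% and 4.3%). Of the 29 member regions on a RefSeq promoter window, 1 rose and 3 fell (1.53% and 9.28%). Member regions called higher had a median of 3.77 CPM over all 6 libraries, and those called lower 61.3 CPM. Over all tested regions these medians were 3.57 and 35.9 CPM.

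**Figure D2:**
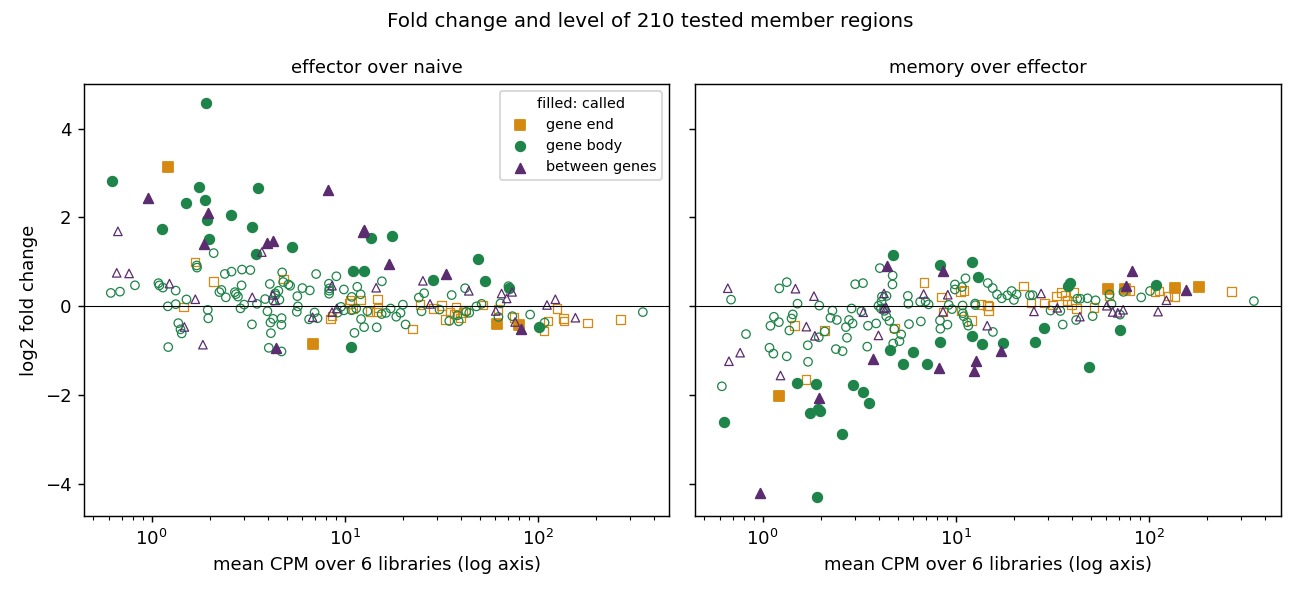
Log2 fold change of the 210 tested member regions against mean CPM over 6 libraries (log axis), for effector over naive (left) and memory over effector (right). Squares are gene end regions, circles lie inside genes and triangles between genes, and filled symbols were called. Gains in effector cells sit mostly at low levels (median 3.77 CPM) and losses at high levels (median 61.3 CPM), against 3.57 and 35.9 CPM over all tested regions.

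Memory cells were set against naive cells to ask what remained 2 months after papain. Of 210 member regions 1 was called higher and 0 lower, against 0.248% and 0.0714% of all regions. An unadjusted p under 0.05 was reached by 23 member regions (9.9% of all regions). Both memory libraries lay above both naive libraries in 47 member regions and below them in 33, against 18.8% and 19.8% of all regions. DESeq2 called 4 higher and 0 lower, against 278 and 81 over all regions (139 and 40 in edgeR). With the replicate number as a block, 10 were called higher and 0 lower, against 1.55% and 1.37% of all regions. The 10 were 3 of Tet2, 2 of Eed and 1 each of Jmjd1c, Dnmt3a, Kdm2b, Kdm5a and Kmt2a. The region called without the block (10:67099921-67101231) lies inside Jmjd1c, which encodes a JmjC protein of the H3K9 demethylase family, 2.93 kb from the next gene, Reep3. It had 62.0 and 63.8 CPM in memory libraries, against 39.4 and 37.6 CPM in naive libraries. Effector libraries had 63.0 and 51.7 CPM. Memory and naive libraries did not overlap, and memory libraries lay within or just above the range of effector libraries. The log2 difference was 0.71 ± 0.14 for memory over naive (SE, edgeR adjusted p = 0.0331) and 0.57 ± 0.14 for effector over naive (0.00814), and it was 0.13 ± 0.13 for memory over effector (0.517). The memory call did not stand when naive replicate 1 (adjusted p = 0.188), naive replicate 2 (0.135) or memory replicate 2 (0.271) was left out, and the effector call when naive replicate 2 (0.0617) or effector replicate 1 (0.141) was.

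Memory cells were set against effector cells to ask how the genes stood after the rest relative to the height of the response, and this comparison shares its libraries with the other two. Of 210 member regions 16 were called higher and 31 lower in memory cells, against 7.72% and 13.6% of all regions, with a median log2 fold change of −0.07 over members and −0.04 over all. At gene ends 4 rose and 1 fell (11.6% and 5.18% over all), inside genes 7 rose and 23 fell (5.75% and 16.5%), and between genes 5 rose and 7 fell (7.07% and 15.7%). On promoter windows 4 of 29 rose and 0 fell (13.4% and 3.81%). Both memory libraries lay above both effector libraries in 47 member regions and below them in 75, against 27.8% and 33.6% of all, and 70 had an unadjusted p under 0.05 (34.6% of all). Without effector replicate 1 the calls numbered 3 higher and 14 lower, and without the other effector library 7 and 23. They numbered 5 and 24 without memory replicate 1, and 9 and 21 without memory replicate 2. Calls over all regions also fell in both directions in each of these fits. Over all regions the main fit called 4322 higher and 7634 lower. Member calls numbered 4 and 37 with total counts alone, against 2051 and 8857 over all regions. They numbered 2 and 50 with TMM on the regions with the highest counts, against 1002 and 11052. With a loess offset on abundance they numbered 7 and 28, against 2224 and 5523. With the replicate number as a block they numbered 29 and 40, against 14.9% and 18.3% of all regions.

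Among the H3K4 methyltransferases, the calls lay in Kmt2a, Kmt2c and Kmt2e. Of 35 tested regions of the 7 genes, 8 (22.9%) rose and 0 fell in effector cells, against 11.5% and 4.98% of all tested regions. Their median log2 fold change was −0.05. DESeq2 called 5 of them higher and 0 lower, against 5057 and 2579 over all regions (6449 and 2791 in edgeR). Kmt2a encodes MLL1, the founding member of the MLL family. Its region at 9:44868058-44870042, inside the gene, had 33.2 and 22.4 CPM in effector libraries, against 8.89 and 9.75 CPM in naive libraries. Memory libraries had 12.9 and 18.1 CPM, between the other groups and overlapping neither. The log2 difference was 1.57 ± 0.23 for effector over naive (SE, edgeR adjusted p = 0.000203), 0.74 ± 0.23 for memory over naive (0.226, and 0.0375 with the replicate block) and −0.83 ± 0.22 for memory over effector (0.0122). The memory decrease was no longer called once effector replicate 1 (0.217) or memory replicate 1 (0.107) was left out.

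A second region of Kmt2a lay 14.1 kb beyond the gene (9:44895410-44895858) and was nearly closed outside the effector state. It had 2.01 and 2.75 CPM in effector libraries, against 0.240 and 0.587 CPM in naive libraries. Memory libraries had 0 and 0.197 CPM. Counts were 79 in effector and 13 in naive libraries, a ratio of 5.46 with an exact 95% counting interval of 3.02 to 10.7. The effector call ended without naive replicate 1 (edgeR adjusted p = 0.108), effector replicate 1 (0.085) or effector replicate 2 (0.143) and with the loess offset (0.0803). Memory libraries held 4 counts, a ratio to effector libraries of 0.0526 (0.0140 to 0.140).

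Kmt2c encodes MLL3, which methylates H3K4 at enhancers. Its region at 5:25366887-25367998, inside the gene, had 4.74 and 6.47 CPM in effector libraries, against 1.60 and 1.12 CPM in naive libraries. Memory libraries had 0.705 and 0.788 CPM and lay below both other groups. Its log2 difference was 2.06 ± 0.40 for effector over naive (edgeR adjusted p = 0.00188) and −2.88 ± 0.42 for memory over effector (0.000208).

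Kmt2e encodes MLL5, a family member with little known methyltransferase activity, and had most of its calls in regions outside the gene. The region 37.9 kb away (5:23393843-23395180) had 29.8 and 20.9 CPM in effector libraries, against 13.5 and 12.8 CPM in naive libraries. Memory libraries had 12.6 and 12.7 CPM, like naive ones. On the log2 scale it differed by 0.94 ± 0.20 for effector over naive (edgeR adjusted p = 0.0038) and −1.003 ± 0.20 for memory over effector (0.0022), and both calls were lost without effector replicate 1 (0.11 and 0.0663). The stronger region 13.6 kb away (5:23418134-23419424) had 90.6 and 81.04 CPM in memory libraries, against 59.98 and 65.4 CPM in effector libraries. Naive libraries had 82.5 and 78.0 CPM. It was higher in memory than in effector cells by 0.45 ± 0.13 (0.0175), while effector over naive gave −0.35 ± 0.13 (0.0642). The memory over effector call was lost under 5 of 14 alternatives. Among them were the fits without effector replicate 1 or memory replicate 1 and with total counts alone (0.0605). The difference ran from 0.19 to 0.53 across the 14. Kmt2b, Kmt2d, Setd1a and Setd1b, whose products form COMPASS-type complexes, had 7 regions and no call in any comparison without the replicate block. With it the Kmt2b region was called higher in memory than in effector cells (0.32, edgeR adjusted p = 0.0321).

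Among the H3K36 and H3K79 methyltransferases, the calls of Dot1l were the clearest. Of 21 tested H3K36 regions, 2 (9.52%) rose and 0 fell in effector cells, against 11.5% and 4.98% of all tested regions. In memory against effector cells 1 (4.76%) rose and 3 (14.3%) fell, against 7.72% and 13.6%. The rises in effector cells were in Setd2 and Nsd3, and Nsd1 and Nsd2 had no call in any comparison. The Setd2 region (9:110593709-110594522), inside the gene, held 64 effector and 17 naive counts, a ratio of 3.38 (counting interval 1.96 to 6.16). It passed the threshold narrowly (log2 1.73, edgeR adjusted p = 0.0457). DESeq2 called 1 H3K36 region higher, and the Setd2 region was not the one called. The Nsd3 region at 8:25651773-25652406, inside the gene, had 9.09 and 8.76 CPM in effector libraries, against 2.80 and 4.17 CPM in naive libraries. Memory libraries had 3.35 and 3.89 CPM, within the naive range. It rose by 1.34 ± 0.30 on the log2 scale for effector over naive (edgeR adjusted p = 0.00504), and leaving out naive replicate 1 (0.067) or effector replicate 1 (0.0528) ended the call. At the end of Nsd3 a strong region (8:25601187-25602242) had 160 and 143 CPM in memory libraries, against 115 and 112 CPM in effector libraries. The difference was 0.41 ± 0.12 (0.0254), and 6 of 14 alternatives lost the call. Among them were the fits without either effector library or memory replicate 1. The difference ran from 0.12 to 0.50 across the 14. Naive libraries had 153 and 134 CPM there. A region at the other end of Nsd3 (8:25719465-25720994) overlapped Plpp5 more and was no member. It had 32.3 and 30.6 CPM in effector libraries, against 45.9 and 41.6 CPM in naive libraries (−0.47 ± 0.14, 0.0269).

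Dot1l encodes the methyltransferase of H3K79. A region inside the gene (10:80763042-80764569) had 85.5 and 72.5 CPM in effector libraries, against 40.1 and 35.7 CPM in naive libraries. Memory libraries had 33.2 and 27.9 CPM and lay below every naive library. On the log2 scale this gave 1.06 ± 0.14 for effector over naive (edgeR adjusted p = 0.000128), −0.31 ± 0.15 for memory over naive (0.498) and −1.37 ± 0.15 for memory over effector (1.79e-05). The effector gain and the memory loss were called under each alternative that was run. In memory against effector cells 3 of the 6 Dot1l regions were called lower and 0 higher, against 13.6% and 7.72% of all tested regions. Among the 3 was 10:80757192-80759306 (−0.55 ± 0.15, 0.0179), which was not called without effector replicate 1 or memory replicate 2. The most covered Dot1l region, 2.5 kb outside the gene (10:80751222-80752608), had 122 and 109 CPM in effector libraries, against 129 and 97.0 CPM in naive libraries, and was not called (0.03 ± 0.15, 0.926).

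**Figure D3:**
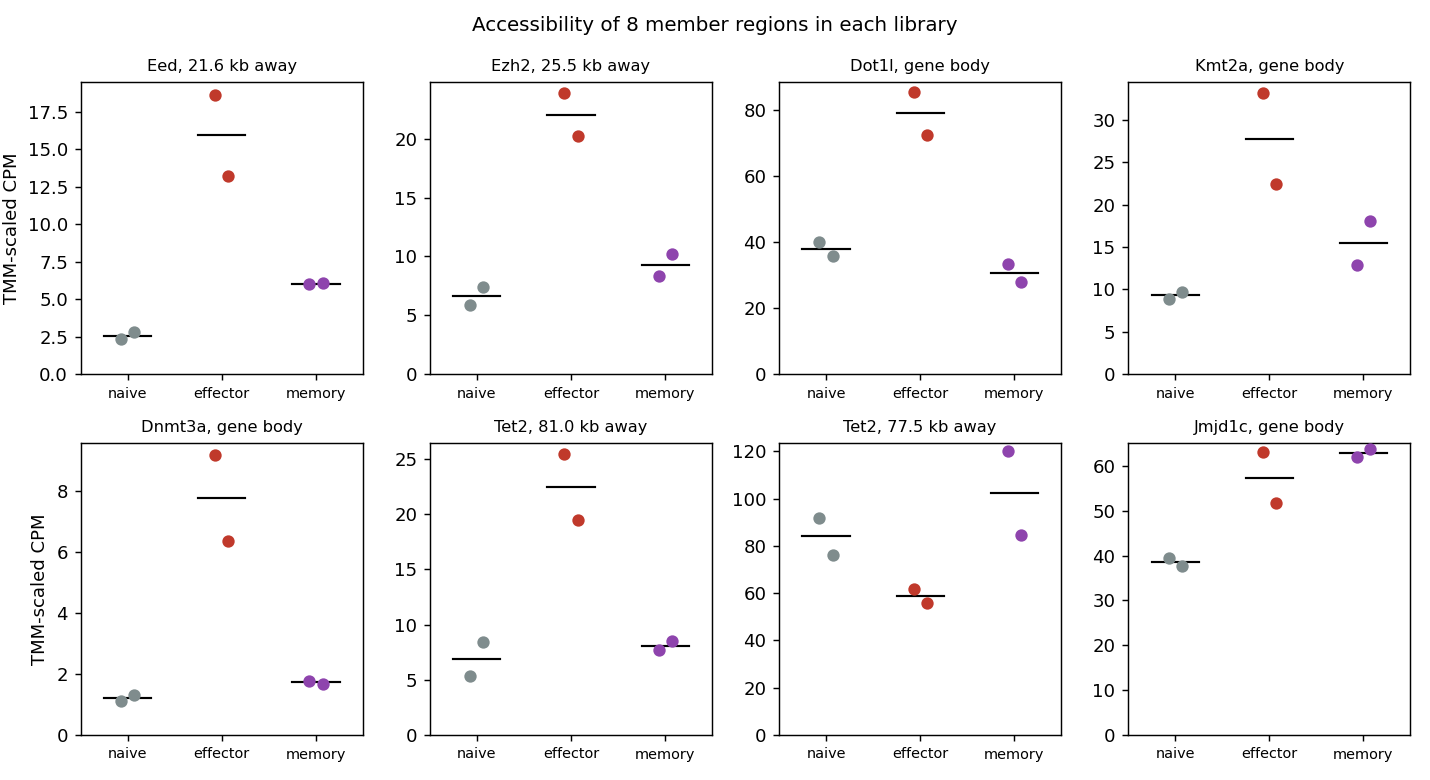
TMM-scaled CPM of 8 member regions in each library (points; bars are group means of 2 libraries; every axis starts at 0) for naive, effector and memory cells. Effector libraries stand above all others at Eed, Ezh2, Dot1l, Kmt2a, Dnmt3a and the far Tet2 region, and below them at the near Tet2 region, while memory libraries reach the effector level at Jmjd1c.

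PRC2 genes had gains at a distance from Eed and Ezh2 and inside Ezh1, and a small loss at the Eed promoter. PRC2 writes H3K27 methylation through Ezh2 or Ezh1, with Eed and Suz12 as structural subunits. Of 25 tested regions 5 (20%) rose and 1 (4.0%) fell in effector cells, against 11.5% and 4.98% of all tested regions, and 1 (4.0%) rose and 5 (20%) fell in memory against effector cells, against 7.72% and 13.6%, with median log2 fold changes of 0.35 and −0.11. A region 21.6 kb from Eed (7:90002574-90003346) had 18.6 and 13.2 CPM in effector libraries, against 2.32 and 2.82 CPM in naive libraries. Memory libraries had 5.996 and 6.06 CPM, between the other groups without overlap. The log2 difference was 2.61 ± 0.28 for effector over naive (SE, edgeR adjusted p = 1.6e-05), the smallest adjusted p among member gains, and −1.40 ± 0.26 for memory over effector (0.00111). Memory over naive gave 1.22 ± 0.29 and missed the threshold (0.0877), and was called with the replicate block (0.00851).

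The next region out, 25.8 kb from Eed (7:90006748-90008163), was its most covered. It had 127 and 119 CPM in effector libraries, against 112 and 109 CPM in naive libraries, and 133 and 138 CPM in memory libraries, and was not called (0.16 ± 0.12 for effector over naive, edgeR adjusted p = 0.41). The region over the Eed promoter printed above (7:89979697-89981786) had 73.2 and 59.2 CPM in effector libraries, against 96.5 and 80.5 CPM in naive libraries. Memory libraries had 84.9 and 84.4 CPM. The call of −0.42 ± 0.14 for effector over naive (0.047) was lost under 6 of 14 alternatives. Among them were the fits without naive replicate 1, effector replicate 1 or effector replicate 2, and with total counts alone (0.0934). The difference ran from −0.58 to −0.20 across the 14.

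Ezh2, the PRC2 enzyme of dividing cells, rose at a region 25.5 kb outside the gene (6:47620792-47622162). This had 23.9 and 20.2 CPM in effector libraries, against 5.84 and 7.40 CPM in naive libraries. Memory libraries had 8.38 and 10.2 CPM, just above the naive range. On the log2 scale the region gave 1.73 ± 0.22 for effector over naive (edgeR adjusted p = 7.67e-05) and −1.24 ± 0.22 for memory over effector (0.000773). At the end of Ezh2 that holds its promoter, the most covered region (6:47593747-47595944) had 86.1 and 83.0 CPM in memory libraries, against 63.4 and 65.6 CPM in effector libraries, and 82.0 and 71.4 CPM in naive libraries. The memory rise over effector cells was 0.39 ± 0.13 (0.0359), and 7 of 14 alternatives lost the call. Among them were the fits without any single effector or memory library, with total counts alone (0.122) and with the loess offset (0.496). The difference ran from 0.13 to 0.42 across the 14.

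Ezh1, the PRC2 enzyme of resting cells, opened inside the gene. At 11:101204844-101206017 the effector libraries had 7.59 and 2.81 CPM, against 0.480 and 0 CPM in naive libraries. Memory libraries had 0.353 and 0.197 CPM. Both effector libraries lay above the other 4, which overlapped, although the effector libraries differed from each other. Counts were 166 in effector and 6 in naive libraries, a ratio of 24.9 (95% counting interval 11.2 to 68.7), and 8 in memory libraries, a ratio to effector libraries of 0.05004 (0.0212 to 0.101). A second region (11:101223938-101224989) held 99 effector and 18 naive counts, a ratio of 4.94 (2.97 to 8.68), and was not called without effector replicate 1 (edgeR adjusted p = 0.0742). The single region of Suz12, at its promoter (11:79992481-79994101), had 30.5 and 32.7 CPM in effector libraries, against 32.2 and 30.3 CPM in naive libraries, and was not called (0.02 ± 0.17, edgeR adjusted p = 0.962).

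The H3K9 methyltransferases had no called region in effector against naive cells without the replicate block. Of 12 tested regions of Ehmt1, Ehmt2, Suv39h1, Suv39h2 and Setdb1, 0 were called by edgeR and 0 by DESeq2. Over all tested regions edgeR called 11.5% higher and 4.98% lower. An unadjusted p under 0.05 was reached by 3 of the 12. With the block, edgeR called regions of Setdb1 (adjusted p = 0.00276) and Ehmt1 (0.0293) higher and a region of Ehmt2 (0.0447) lower. In memory against effector cells, without the block, 0 rose and 2 (16.7%) fell, against 7.72% and 13.6% of all tested regions. The first lay inside Ehmt1, which encodes GLP (2:24870527-24871700), with 4.50 and 4.14 CPM in memory libraries, against 13.05 and 8.19 CPM in effector libraries, and 6.40 CPM in both naive libraries. The other lay 3.0 kb from Setdb1 (3:95360195-95360868), with 1.68 and 3.45 CPM in memory libraries, against 5.71 and 6.42 CPM in effector libraries. Without effector replicate 1 neither was called (0.0995 and 0.14), and the Setdb1 call also ended without effector replicate 2 (0.173) or memory replicate 1 (0.255), with RLE factors (0.0526), with the loess offset (0.116) and under DESeq2 (0.0806).

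Demethylase genes changed in both directions. Kdm1a encodes LSD1, which removes H3K4 methylation. In effector cells 2 of its 6 regions were called lower and 0 higher, against 4.98% and 11.5% of all tested regions. The region inside the gene at 4:136574102-136574821 had 6.23 and 8.94 CPM in effector libraries, against 13.8 and 14.9 CPM in naive libraries. Memory libraries had 11.9 and 8.81 CPM and overlapped the effector ones. The log2 difference was −0.92 ± 0.24 (edgeR adjusted p = 0.0155), and the call was lost without naive replicate 2 (0.0758) or effector replicate 1 (0.181) and with TMM on the highest 20% (0.057). A region at the Kdm1a gene end (4:136601282-136602337) fell by 0.85 on the log2 scale (0.0431), which was not called without any single naive or effector library (0.0555 to 0.26), with total counts alone (0.0783), with TMM on the highest 20% (0.131) or under DESeq2 (0.0617). Kdm5a, whose product also demethylates H3K4, rose at 6:120395462-120396255, with 3.83 and 3.72 CPM in effector libraries, against 1.281 and 0.235 CPM in naive libraries. Its counts were 124 and 20, a ratio of 5.57 (95% counting interval 3.46 to 9.43). This call ended without naive replicate 2 (0.0728) or effector replicate 1 (0.06).

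The H3K36 and H3K9 demethylases Kdm2a, Kdm2b, Kdm3a, Kdm4a, Kdm4b, Kdm4c and Jmjd1c had 47 tested regions. Of these 3 (6.38%) rose and 1 (2.13%) fell in effector cells, against 11.5% and 4.98% of all tested regions, with a median log2 fold change of 0.05. The rises were the Jmjd1c region described above, another inside Jmjd1c 1.51 kb from Reep3 (10:67098497-67099044, 0.59 ± 0.15, edgeR adjusted p = 0.0127) and 1 inside Kdm2b (5:122893541-122895492, 1.19 ± 0.36, 0.0317). The second Jmjd1c call ended without naive replicate 1 (0.0851), naive replicate 2 (0.064) or effector replicate 1 (0.126), and the Kdm2b call without naive replicate 1 (0.201), naive replicate 2 (0.0536) or effector replicate 1 (0.286), with the loess offset (0.064) and under DESeq2 (0.0639). Kdm2a, Kdm3a and Kdm4b had no call in any comparison without the replicate block. With it, regions of Kdm3a (edgeR adjusted p = 0.00682) and Kdm4b (0.0211) were called lower in effector than in naive cells. In memory against effector cells it called the Kdm3a region higher (0.00433) and a Kdm2a region lower (0.0253). The 1 fall among the 47 regions without the block was the region over the Kdm4c promoter printed above (4:74251076-74253016). It had 76.3 and 89.9 CPM in effector libraries, against 123 and 107 CPM in naive libraries. Memory libraries had 110 and 101 CPM. Effector libraries lay below all others. The log2 difference was −0.47 ± 0.13 (0.0208), and 4 of 14 alternatives lost the call. Among them were the fits without naive replicate 1 or effector replicate 1 and with the loess offset (0.234). The difference ran from −0.59 to −0.23 across the 14.

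Kdm4a, whose product demethylates H3K9 and H3K36, was higher in memory than in effector cells at its promoter (4:118179270-118180641). Memory libraries had 224 and 179 CPM, against 139 and 157 CPM in effector libraries. Naive libraries had 187 and 198 CPM. The difference was 0.44 ± 0.13 (edgeR adjusted p = 0.0258), and 5 of 14 alternatives lost the call. Among them were the fits without effector replicate 1 or memory replicate 1 and with total counts alone (0.0795). The difference ran from 0.12 to 0.59 across the 14. The 3 regions of Kdm6b, which include the member region with the most CPM, were not called in any comparison without the replicate block. With it the gene end region (11:69417585-69419928) was called lower in effector than in naive cells (−0.55, edgeR adjusted p = 2.95e-05). It was also called higher in memory than in effector cells (0.34, 0.0047).

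The DNA methyltransferase genes opened at weak regions inside Dnmt3a and Dnmt1, while their strong regions did not open. Of 21 tested regions 5 (23.8%) rose and 0 fell in effector cells, against 11.5% and 4.98% of all tested regions, with a median log2 fold change of 0.37. In memory against effector cells 4 (19.0%) rose and 5 (23.8%) fell, against 7.72% and 13.6%. Dnmt3a encodes a de novo methyltransferase. Its region at 12:3861477-3862716, inside the gene, had 9.15 and 6.36 CPM in effector libraries, against 1.12 and 1.29 CPM in naive libraries. Memory libraries had 1.76 and 1.67 CPM, close to the naive ones. Its log2 difference was 2.67 ± 0.37 for effector over naive (SE, edgeR adjusted p = 0.00015) and −2.17 ± 0.35 for memory over effector (0.000472).

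Other Dnmt3a gains were 12:3845830-3846864 inside the gene, with 126 effector and 18 naive counts and a ratio of 6.29 (95% counting interval 3.82 to 10.95), and 12:3799681-3800686, 0.9 kb from the gene, with 89 and 9 counts and a ratio of 8.88 (4.47 to 20.1). Without effector replicate 1 the first was not called (edgeR adjusted p = 0.0942). Further into the gene the most covered Dnmt3a region (12:3870712-3871915) ran the other way. It had 80.0 and 96.1 CPM in effector libraries, against 111 and 116 CPM in naive libraries, which missed the threshold (−0.37 ± 0.13, edgeR adjusted p = 0.058). Memory libraries had 118 and 128 CPM, higher than effector libraries by 0.48 ± 0.13 (0.0129), a call lost without effector replicate 1 (0.17) or memory replicate 2 (0.0664), with total counts alone (0.0509), with TMM on the highest 20% (0.19) and with the loess offset (0.317). The smaller region 12:3868520-3868884 had 16.9 and 17.4 CPM in memory libraries, against 7.92 and 9.39 CPM in effector libraries, a difference of 0.99 ± 0.21 (0.00319). Naive libraries had 11.05 and 10.2 CPM, and memory over naive gave 0.70 ± 0.21 (0.204, and 0.0367 with the replicate block).

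Dnmt1, which copies methylation onto new DNA strands, had its called gains inside the gene. The region 9:20943399-20944132 had 4.28 and 3.78 CPM in effector libraries, against 0.560 and 1.47 CPM in naive libraries. Memory libraries had 0.705 and 0.886 CPM. The log2 difference was 1.93 ± 0.46 for effector over naive (edgeR adjusted p = 0.00853, and 0.0911 without naive replicate 1 and 0.0876 without effector replicate 1) and −2.30 ± 0.48 for memory over effector (0.00284). Its promoter region (9:20951975-20953433) had 43.4 and 46.2 CPM in memory libraries, against 35.0 and 30.1 CPM in effector libraries, and 39.9 and 35.2 CPM in naive libraries. The memory rise over effector cells was 0.46 ± 0.15 (0.0314), and 7 of 14 alternatives lost the call. Among them were the fits without any single effector or memory library and with total counts alone (0.1). The difference ran from 0.22 to 0.58 across the 14. Dnmt3b, the other de novo enzyme, had 3 regions and no call without the replicate block. With it the region 2:153710220-153711606 was called lower in memory than in effector cells (−1.63, edgeR adjusted p = 0.0238). The most covered Dnmt3b region (2:153648903-153651338) had 15.6 and 12.7 CPM in effector libraries, against 15.7 and 15.3 CPM in naive libraries.

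**Figure D4:**
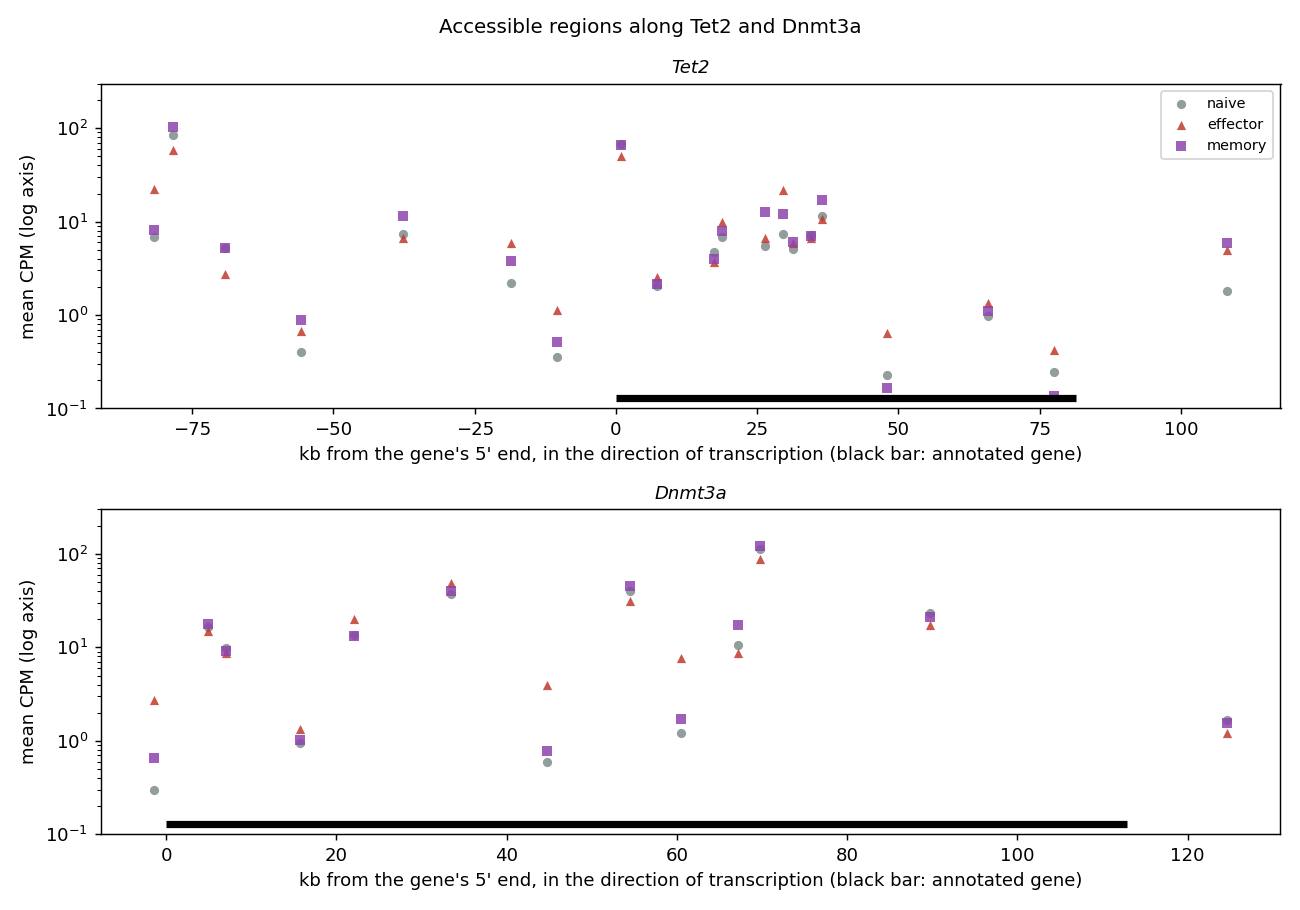
Mean CPM (log axis) of each region of Tet2 and Dnmt3a by its distance in kb from the gene's 5′ end, with the gene as a black bar, for naive (circles), effector (triangles) and memory cells (squares). Effector triangles stand above the other symbols at several weak regions and below them at the strongest region of each gene, which had 61.5 and 56.0 CPM (Tet2) and 80.0 and 96.1 CPM (Dnmt3a) in effector libraries.

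The TET genes changed in both directions, mostly around Tet2. Of 31 tested regions 6 (19.4%) rose and 3 (9.68%) fell in effector cells, against 11.5% and 4.98% of all tested regions. In memory against effector cells 6 rose and 3 fell in turn, against 7.72% and 13.6%. Tet2 encodes the TET enzyme best known from blood cells. Upstream of it lay a pair of regions 1734 bp apart that went opposite ways. The far region, 81.0 kb away (3:133626166-133627519), had 25.4 and 19.5 CPM in effector libraries, against 5.36 and 8.46 CPM in naive libraries. Memory libraries had 7.67 and 8.52 CPM. The near region, 77.5 kb away (3:133622646-133624432), had 61.5 and 56.0 CPM in effector libraries, against 91.8 and 76.2 CPM in naive libraries. Memory libraries had 120 and 84.6 CPM.

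Within each library the far region held 0.414 and 0.348 of the near one in effector libraries, against 0.0584 and 0.111 in naive libraries. It held 0.0638 and 0.101 in memory libraries. Both effector libraries lay above the other 4 on this ratio, which no library scaling touches. Both regions were picked for their changes in these same libraries, so the ratio adds no separate support for either change. The far region rose by 1.68 ± 0.24 in effector over naive cells (SE, edgeR adjusted p = 0.0002) and had −1.47 ± 0.24 in memory over effector cells (0.000478). The near region had −0.52 ± 0.16 (0.0351) and 0.80 ± 0.16 (0.00225). The call of its effector loss was itself lost under 6 of 14 alternatives. Among them were the fits without naive replicate 1, effector replicate 1 or effector replicate 2. The effector over naive difference ran from −0.65 to −0.29 across the 14. The rise of the near region in memory over effector cells was called under each alternative. The next nearest protein-coding gene, Ppa2, lies 244 kb from the near region.

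Inside Tet2 the region 3:133514972-133516002 had 21.7 and 21.5 CPM in effector libraries, against 6.40 and 8.28 CPM in naive libraries, and 9.70 and 14.2 CPM in memory libraries (1.55 ± 0.23 for effector over naive, edgeR adjusted p = 0.000243). A neighbouring region at 3:133518308-133519362 had its highest values in memory cells. It had 11.9 and 13.6 CPM in memory libraries, against 4.72 and 6.23 CPM in naive libraries, and 5.58 and 7.79 CPM in effector libraries. Memory over effector gave 0.93 ± 0.26 (0.0162), and memory over naive gave 1.21 ± 0.26 and missed the threshold (0.0604), which it passed with the replicate block (0.00151). The memory over effector call ended without effector replicate 1 (0.164) or memory replicate 2 (0.0951) and with TMM on the highest 20% (0.0814). Beyond the 3′ end, 25.9 kb away (3:133436264-133437739), memory libraries had 3.70 and 8.22 CPM and effector libraries 4.804 and 5.16 CPM, against 1.92 and 1.70 CPM in naive libraries. This was called for effector over naive (1.46 ± 0.39, 0.0158) and missed the threshold for memory over naive (1.75 ± 0.39, 0.067, and 0.00312 with the replicate block). The effector call ended without any single naive or effector library (0.0538 to 0.0804).

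The Tet2 promoter region (3:133543086-133545463) had 53.0 and 47.8 CPM in effector libraries, against 72.7 and 61.4 CPM in naive libraries. Memory libraries had 65.8 and 67.0 CPM. It was lower in effector than in naive cells, at −0.41 ± 0.13 (SE, edgeR adjusted p = 0.0429), and higher in memory than in effector cells by 0.40 ± 0.13 (0.0412). The effector loss was not called without naive replicate 1 (0.344), effector replicate 1 (0.107) or effector replicate 2 (0.213), with total counts alone (0.0982), with TMM on the highest 20% (0.286) or with the loess offset (0.293). The memory rise was not called without any single effector or memory library (0.0874 to 0.205), nor under those 3 scalings (0.13 to 0.444). The Tet3 promoter window, which lies inside the gene, was the only member promoter window under a region called higher in effector cells. Its region (6:83440081-83443174) had 88.1 and 73.3 CPM in effector libraries, against 62.4 and 59.4 CPM in naive libraries, and 74.3 and 67.4 CPM in memory libraries. The difference was 0.41 ± 0.13 (0.0445), and 5 of 14 alternatives lost the call. Among them were the fits without naive replicate 1, naive replicate 2 or effector replicate 1, and DESeq2 (0.0791). At the annotated 5′ end of Tet3 the region (6:83456473-83457565) went the other way without being called (−0.51, edgeR adjusted p = 0.0823). With the replicate block it was called lower (0.019). Tet1 rose at 10:62837890-62838947, inside the gene, with 5.39 and 7.27 CPM in effector libraries, against 1.36 and 2.23 CPM in naive libraries (1.79 ± 0.42, 0.00697, and 0.0645 without naive replicate 1 and 0.0636 without effector replicate 2). Its most covered region (10:62865143-62866407) had 9.28 and 12.8 CPM in effector libraries, against 14.5 and 16.1 CPM in naive libraries, and was not called (−0.47 ± 0.22, 0.157).

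Counts were also summed over all regions of a gene and tested over 15081 genes, which gives each gene a single value. Of 37 members, 4 rose and 1 fell in effector cells, against 6.58% and 4.04% of all genes. Ezh1 had 30.5 and 21.2 CPM in effector libraries, against 15.3 and 13.1 CPM in naive libraries (0.87 ± 0.21, edgeR adjusted p = 0.0224). Kmt2a had 107 and 87.9 CPM in effector libraries, against 70.9 and 69.4 CPM in naive libraries (0.48 ± 0.12, 0.0275). Dot1l had 350.4 and 299 CPM in effector libraries, against 255 and 216 CPM in naive libraries (0.46 ± 0.12, 0.0281), and Kdm5a rose by 0.37 ± 0.11 (0.0473). Kdm4c had 91.8 and 107 CPM in effector libraries, against 139 and 125 CPM in naive libraries (−0.41 ± 0.11, 0.0334). None of the 5 was called without naive replicate 1, naive replicate 2 or effector replicate 1.

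In memory against naive cells 0 of 37 members were called by edgeR on summed counts, against 0.186% of all genes, and 2 had an unadjusted p under 0.05. The fold changes ran from −0.26 to 0.27 on the log2 scale, with Tet2 highest at 284 and 275 CPM in memory libraries, against 240 and 224 CPM in naive libraries (adjusted p = 0.328). In memory against effector cells 1 rose and 1 fell, against 5.72% and 9.03% of all genes. Dot1l had 235 and 192 CPM in memory libraries, against 350.4 and 299 CPM in effector libraries (−0.61 ± 0.12, adjusted p = 0.00668), which was lost without effector replicate 1 (0.0814). Kdm4a had 225 and 183 CPM in memory libraries, against 150 and 169 CPM in effector libraries (0.35 ± 0.11, 0.0478). Of 11 alternatives, 9 lost this call. Among them were the fits without naive replicate 1 or 2, effector replicate 1 or 2, or memory replicate 1. The difference ran from 0.16 to 0.50 across the 11.

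Genes whose products work with these enzymes were read from lists of their own. The subunits of the KMT2 and SET1 complexes had calls in effector cells in the downward direction, with 0 of 34 tested regions called higher and 8 (23.5%) lower, against 11.5% and 4.98% of all tested regions, and a median log2 fold change of −0.25. Of the 8, 5 belonged to Kdm6a, which encodes the H3K27 demethylase UTX of these complexes. Its gene end region (X:18161676-18164375) had 127 and 129 CPM in effector libraries, against 217 and 183 CPM in naive libraries, and 191 and 146 CPM in memory libraries. The Kdm6a region with the smallest adjusted p (X:18179099-18180279) had 8.24 and 8.76 CPM in effector libraries, against 20.6 and 15.5 CPM in naive libraries (−1.08 ± 0.23, edgeR adjusted p = 0.0037). Ash2l, a core subunit, had 37.5 and 38.6 CPM in effector libraries, against 56.8 and 54.2 CPM in naive libraries (−0.54 ± 0.13, 0.0102). In memory against effector cells 7 (20.6%) regions of the list rose and 1 (2.94%) fell, against 7.72% and 13.6% of all tested regions. Between memory and naive cells 0 were called by edgeR or DESeq2, with 0 at an unadjusted p under 0.05 (9.9% of all tested regions).

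PRC1 genes, whose products ubiquitinate histone H2A, had 5 of 52 tested regions (9.62%) called higher and 0 lower in effector cells, and 0 higher and 7 (13.5%) lower in memory against effector cells. The shares of 9.62% and 13.5% lay near those of all tested regions, 11.5% and 13.6%. The 0 lower in effector cells and 0 higher in memory cells stood against 4.98% and 7.72% of all tested regions. Rybp, a PRC1 subunit gene, held the only called loss of memory against naive cells among these partner lists. Its region 26.4 kb away (6:100313792-100314859) had 2.03 and 1.58 CPM in memory libraries, against 5.36 and 5.46 CPM in naive libraries (−1.61 ± 0.31, edgeR adjusted p = 0.0295). Effector libraries had 14.9 and 11.6 CPM, so memory libraries lay below the naive ones and effector libraries above them. The memory over naive loss was 1 of 52 tested PRC1 regions (1.92%), against 0.0714% of all tested regions. This call did not stand when memory replicate 2 was left out. The region of Yaf2, a close relative of Rybp, at 15:93287717-93289447 had 5.00 and 4.07 CPM in effector libraries, against 1.281 and 1.06 CPM in naive libraries.

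The other partner lists are set against 11.5% higher and 4.98% lower over all tested regions in effector cells. Accessory subunits of PRC2 had 4 of 52 regions (7.69%) higher and 2 (3.85%) lower, with Aebp2 and Jarid2 in both directions. Cofactors and readers of DNA methylation had 7 of 46 (15.2%) higher and 0 lower, all in Zbtb38 and Mbd2. The Zbtb38 region 9:96712941-96714805 had 31.2 and 24.5 CPM in effector libraries, against 8.25 and 11.1 CPM in naive libraries (1.52 ± 0.22, edgeR adjusted p = 0.000191), and a region inside Mbd2 had 21.8 and 19.6 CPM in effector libraries, against 7.61 and 10.4 CPM in naive libraries (1.19 ± 0.22, 0.00118). Other methyltransferases had 5 of 50 higher and 3 lower, led by Prmt7 (8:106215975-106217519, 2.46 ± 0.35, 0.000199) and Carm1 (9:21564405-21565184, 2.77 ± 0.61, 0.00505). Other demethylases had 7 of 35 higher and 3 lower. The region 34.3 kb from Kdm7a (6:39241071-39242641) had 13.4 and 11.9 CPM in effector libraries, against 1.76 and 3.00 CPM in naive libraries (2.38 ± 0.31, 7.78e-05), and that inside Riox2 (16:59474923-59476645) had 17.7 and 12.8 CPM in effector libraries, against 5.604 and 5.58 CPM in naive libraries (1.44 ± 0.25, 0.000937).

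Regions of cell type markers were read in the same way for effector against naive cells, where 11.5% of all tested regions rose and 4.98% fell. Of 27 tested regions assigned to 5 of 8 myeloid genes, 6 (22.2%) rose and 0 fell, with summed levels of 317 to 325 CPM in effector libraries, against 304 to 313 CPM in naive libraries, and 311 to 315 CPM in memory libraries. Of 38 regions of 6 of 7 lung epithelial, endothelial and stromal genes, 5 (13.2%) rose and 0 fell (278 to 287 CPM in effector, 249.96 to 257 CPM in naive and 267 to 269 CPM in memory libraries). Of 25 regions of 4 of 6 mast cell and basophil genes, 1 (4.0%) rose and 4 (16.0%) fell (407 to 421 CPM in effector, 505 to 510 CPM in naive and 468 to 480.1 CPM in memory libraries). T cell regions had 1 rise and 1 fall of 19, NK cell and ILC1 regions 1 rise and 0 falls of 17, and B cell regions 2 rises and 0 falls of 11. Regions of the ILC2 genes themselves had 24 rises (14.7%) and 3 falls of 163. The part of other cells in the changes at the enzyme genes was not tested.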

How the data were processed

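Counts per region were deposited by the authors as 1 raw table of 6 libraries. The submitters' processing notes name mm10, edgeR 3.34.0, Bowtie2 2.5.3, fastp, MACS2, ChIPseeker 1.28.3, deepTools 3.5.4 and bedtools 2.31.1. The sources used here do not give how regions were merged, what counted the reads, whether insertions were shifted or which duplicate filters applied.

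The fits used edgeR 4.0.16 (limma 3.58.1, R 4.3.3). The filter filterByExpr kept 56007 regions and removed 1196. Libraries were scaled by TMM. One coefficient per group was estimated by quasi-likelihood (robust, 3 residual degrees of freedom) over all libraries and tested two-sided, and steps were tested on simulated data. Dividing a log2 fold change by the root of its F gave its standard error. The median biological coefficient of variation was 19.3%. Each region went to the nearest gene among 21900 protein-coding RefSeq genes. Below 21 counts in a group, ratios of scaled counts with exact intervals are given. These intervals pool the 2 libraries of a group, so they cover counting error only and leave out the spread between libraries. Fits of counts summed per gene used the same model.

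No label says what equal replicate numbers share. Deviations of equal-numbered libraries from their group means correlated across regions at 0.24 (effector and naive), 0.27 (memory and naive) and 0.19 (memory and effector), so counts with the replicate number as a block are given beside those without it.

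Alternatives were RLE factors, total counts, TMM on the highest 20% of regions, a loess offset (span 0.3), no filter, DESeq2 1.42.0, only the groups compared, a replicate block, each library left out, and other region assignments. Members, lists and tests were chosen with earlier results of these data known. Values per library are given, per comparison and direction, for the called region with the smallest adjusted p of each of up to 10 genes, for the most covered region of 12 genes (Ezh2, Eed, Suz12, Kmt2a, Dot1l, Kdm6b, Dnmt1, Dnmt3a, Dnmt3b, Tet1, Tet2 and Tet3), for genes called on summed counts, and for up to 2 genes per partner list. Other regions given with values were chosen after their values were seen.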

Additional observations from a re-analysis of the deposited data

How the results depend on the processing

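Of 39 named calls with 521 values under alternatives, 435 stayed called in the same direction, 85 kept the direction but lost the call and 1 turned, and 18 of the 39 were called under each alternative run. The turned value was Kmt2a summed over gene end regions only (−0.0211, edgeR adjusted p = 0.958). The replicate number as a block gave, over all regions, 15320 calls for effector against naive (9240 without the block), 1634 for memory against naive (179) and 18592 for memory against effector (11956). Among member regions it gave 23 lower (7) for effector against naive, 10 higher (1) for memory against naive and 29 higher (16) for memory against effector, and 11 (5), 1 (0) and 12 (2) summed genes in the 3 comparisons. For effector against naive, member regions lower numbered 2 with total counts alone, 0 with TMM on the highest 20% and 4 with the loess offset, regions higher numbered 21 when only regions overlapping a member gene were kept, and 1 summed gene was called with gene end regions only. For memory against naive, DESeq2 called 359 regions in all and 4 member regions higher, and the loess offset 3 member regions higher. For memory against effector, the loess offset called 7747 regions in all. Member regions higher numbered 4 with total counts alone, 2 with TMM on the highest 20% and 7 with the loess offset, regions lower 50 with TMM on the highest 20%, and 1 summed gene was called with gene end regions only. TMM on the highest 20% moved the median of all regions to 0.20 for effector against naive and −0.28 for memory against effector, and total counts moved the second to −0.16. Leaving out single libraries gave, for effector against naive, 2907 to 10313 calls in all, 12 to 34 member regions higher, 0 to 8 lower and 0 to 5 summed genes. For memory against naive it gave 14 to 390 calls in all and 0 to 2 member regions higher. For memory against effector it gave 4298 to 12085 calls in all, 3 to 14 member regions higher, 14 to 33 lower and 0 to 6 summed genes. Where this left a group with a single library, that library was taken to vary like the others. The turned directions among the most covered regions had no call on either side. With TMM on the highest 20% they were Kmt2a (0.0254) and Dnmt3b (0.0638) for effector over naive, and Eed (−0.11), Kmt2a (−0.00509) and Dnmt3b (−0.22) for memory over effector. With the loess offset they were Kdm6b (0.21) for effector over naive and Eed (−0.15) and Kdm6b (−0.25) for memory over effector. Leaving out single libraries, Suz12 ran from −0.28 to 0.30 for memory over naive and from −0.29 to 0.28 for memory over effector, lowest without memory replicate 2. The causes were not tested.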
